A study of Homo sapiens with 9 samples.

Results

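Keratins are the proteins of epithelial intermediate filaments. Each filament is built from pairs of a type I and a type II keratin, and the pair that a cell makes marks the kind of epithelium that it comes from. In the breast, KRT8, KRT18 and KRT19 are the usual keratins of luminal cells, whereas KRT5, KRT14 and KRT17 are those of the basal, myoepithelial layer. The genes of type I keratins lie in a cluster on chromosome 17 and those of type II in a cluster on chromosome 12, where the type I gene KRT18 also lies.

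All keratin genes on the array were examined in 3 stably transfected derivatives of T47D, a human breast cancer line of luminal type. A gene was taken when the array design names a probe KRT followed by a number, which gave 64 of the 43370 genes on the array, read by 77 probes. They are 55 protein genes, 8 pseudogenes and 1 antisense RNA. A set of 5 lists divides the protein genes by their usual site, namely luminal keratins, basal keratins, keratins of suprabasal and other epithelia, keratins of hair and nail, and keratins of the inner root sheath of the hair. KRT222, a keratin-like gene of the chromosome 17 cluster, is in no list.

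The study asked how PTH-AS, a long noncoding RNA transcribed near the parathyroid hormone gene, changes gene expression. T47D-PA6 carries the PA6 fragment, which covers the whole of PTH-AS, T47D-PA5 carries the PA5 fragment, which is missing part of the 5′ side and served as a further control, and T47D-VC1 carries the pTARGET vector with no insert. All 3 lines were stably transfected, selected with G418 and kept in DMEM with 10% FBS, and each stands for a single selected line, so that the effect of a fragment and a property of the line that was selected cannot be told apart. There were 3 arrays for each line, 9 in all, and whether the replicates are separate cultures is not stated, so that the p-values measure the spread between these arrays only.

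Well above background is the mark that Feature Extraction sets for a spot clearly brighter than its surroundings, and per array 44.0% to 48.0% of probes had it. Signals are fluorescence intensities after quantile normalization, with no unit, means are geometric means, and probe positions refer to hg19. A probe entered the test if all 3 arrays of some line had it well above background, and limma compared the lines in 1 fit of the 9 arrays, with p-values adjusted over 20077 genes. Replicate 1 of every line was on slide 1 and was scanned in an earlier run than replicates 2 and 3. Slide 2 held replicate 2 of T47D-VC1 and of T47D-PA5 and no array of T47D-PA6. Slide 3 held replicate 3 of every line and also replicate 2 of T47D-PA6. The part of a shared slide in the spread of T47D-PA6 was not tested. Among markers of luminal breast epithelium, 9 of 9 were well above background on all 9 arrays, including KRT8, KRT18, KRT19, ESR1 and PGR. Of 7 markers of basal or myoepithelial cells, ACTA2 and OXTR reached this mark on all arrays and TP63, KRT5 and MYH11 on none. Of 6 fibroblast markers, COL1A1 reached it on all arrays and COL1A2, COL3A1, DCN and LUM on none.

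Of the 64 keratin genes, 32 could be tested, 26 protein genes, 5 pseudogenes and the antisense RNA KRT73-AS1. Among the 26 protein genes, 24 were well above background on all 9 arrays. Of the 29 protein genes that were not tested, 25 were well above background on no array. These include the other keratins of hair (KRT33B, KRT34, KRT35, KRT36, KRT38, KRT40, KRT82 and KRT84) and most of those of the root sheath. The median signal of the probes not tested was 2.92, whereas the dimmest probe that counted as well above background measured 9.59 to 15.2, depending on the array. In bulk RNA, a smaller share of cells that make a keratin and less of its RNA per cell cannot be told apart.

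**Figure D1:**
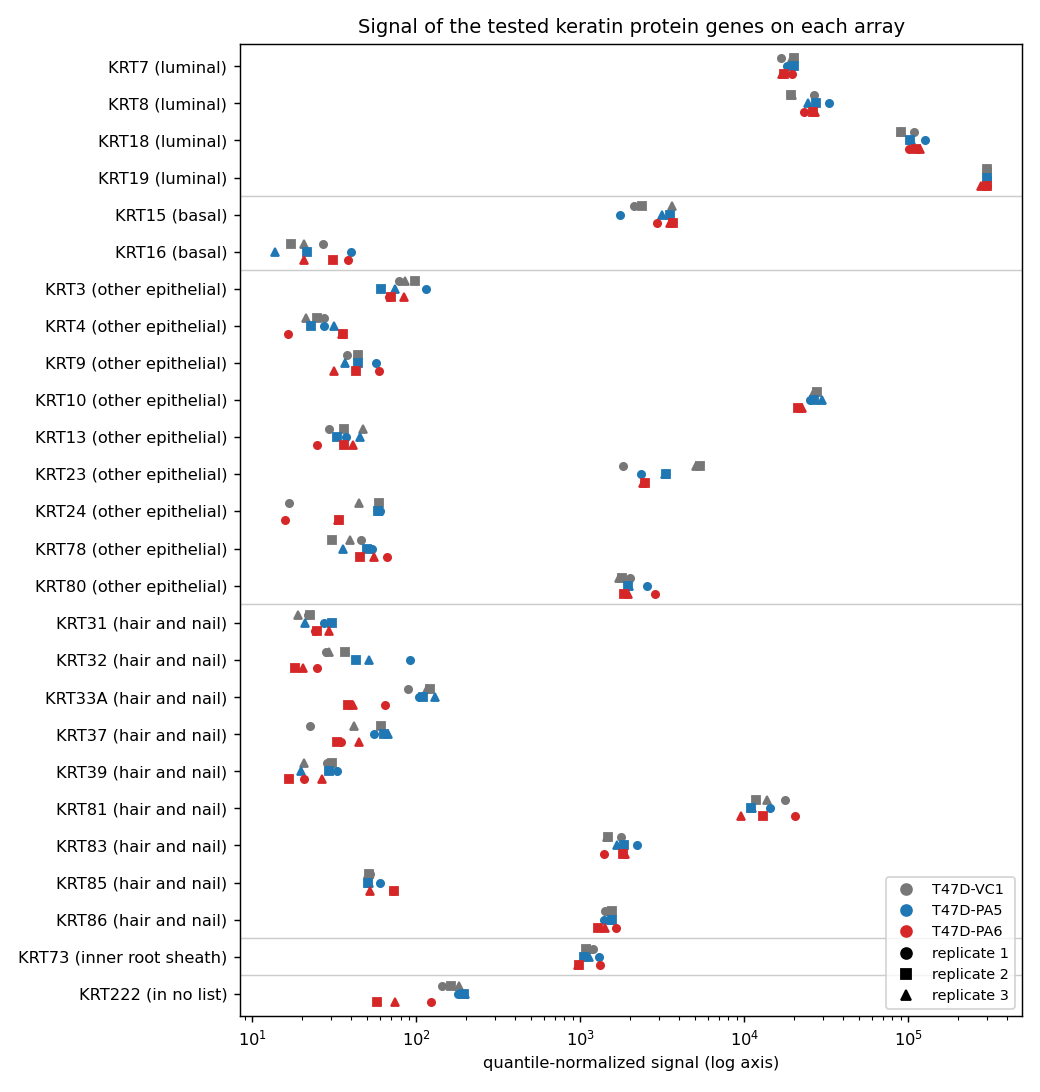
Signal of the 26 tested keratin protein genes on each of the 9 arrays, on a log axis, with the 3 lines in colors and the replicates as symbols. The 4 luminal keratins lie at 16845 and more in all lines, and the arrays of T47D-PA6 lie to the left for KRT33A, KRT32, KRT222 and KRT10.

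Limma called none of the 4 luminal keratins tested in any comparison. For KRT19 this carries no information, because its normalized signal is set by its rank, as described below. Over all genes limma called 10.0% in T47D-PA6 and 1.66% in T47D-PA5 compared with T47D-VC1, and 9.70% between T47D-PA6 and T47D-PA5. A list of 4 genes with 0 calls is not set apart from these shares. KRT8 alone had an unadjusted p under 0.05, in T47D-PA5 compared with T47D-VC1. KRT7, a type II keratin of simple and glandular epithelia (chr12:52642590-52642649), measured 16845, 20012 and 19531 in T47D-VC1, 18095, 20047 and 19639 in T47D-PA5, and 19560.4, 17502 and 16894 in T47D-PA6. The 3 lines overlap. The log2 difference of T47D-PA6 from T47D-VC1 was -0.06 with a 95% interval from -0.31 to 0.19 in limma. KRT20, a keratin of gut and urothelium, was well above background on no array.

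KRT8, the type II keratin of luminal cells (chr12:53291026-53291085), measured 26704, 19261 and 19488 in T47D-VC1, 32951, 27267 and 24477 in T47D-PA5, and 23017, 26189.7 and 26898 in T47D-PA6. T47D-PA5 had the highest array and T47D-VC1 the 2 lowest, but the lines overlap. The difference from T47D-VC1 was 0.38 ± 0.16 (SE) on the log2 scale in T47D-PA5, with an adjusted p of 0.32 in limma, and 0.23 ± 0.16 in T47D-PA6, with an adjusted p of 0.42. KRT18, its type I partner (chr12:53346116-53346554), measured 108035, 89670.3 and 90619.8 in T47D-VC1, 126186, 101672 and 104061 in T47D-PA5, and 100886, 110839 and 118359 in T47D-PA6. Both other lines were 0.20 ± 0.13 above T47D-VC1 on the log2 scale, with an adjusted p of 0.52 for T47D-PA5 and 0.37 for T47D-PA6.

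The sign of the KRT8 and KRT18 differences depended on the scan run. In the earlier run, which has 1 array of each line, T47D-PA6 was below T47D-VC1 by a log2 difference of -0.21 for KRT8 and -0.10 for KRT18. In the later run, T47D-PA6 was above T47D-VC1 by 0.45 for KRT8 and 0.35 for KRT18, and both passed the limma test there with adjusted p-values of 0.0093 and 0.012. In that run 37.2% of all genes passed the same test. T47D-PA5 was above T47D-VC1 in both runs, by 0.30 and 0.42 for KRT8 and by 0.22 and 0.19 for KRT18. A second KRT8 probe (chr12:53294461-53294995) gave 0.36 for T47D-PA5 and 0.18 for T47D-PA6, and a further one, placed upstream of the KRT18 probes (chr12:53343241-53343300), gave 0.00 and 0.09. The second KRT18 probe (chr12:53345577-53345636) gave 0.15 and 0.02. The probes of the pseudogenes KRT8P12 and KRT18P55, which may share RNA with their parent genes, gave 0.25 and 0.15 for T47D-PA5 and 0.15 and 0.03 for T47D-PA6, and none was called.

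KRT19, the type I keratin of luminal cells that lacks a tail domain (chr17:39679918-39679977), had the brightest of all probes on 8 of the 9 arrays. Quantile normalization gives the brightest probe the same value on every array, which was 301366 for these 8, so a difference in KRT19 cannot be read from the normalized signals. After a shift of each array to a common 75th percentile instead, KRT19 measured 287881, 295216 and 258280.2 in T47D-VC1, 348864, 302525 and 284449.8 in T47D-PA5, and 362642, 298230.0 and 277802 in T47D-PA6. The lines overlap on that scale too, and both T47D-PA5 and T47D-PA6 lay 0.15 ± 0.14 above T47D-VC1 on the log2 scale, with adjusted p-values of 0.69 and 0.55 in limma.

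Most basal keratins were not above background. KRT5, KRT6A, KRT6B and KRT6C were well above background on no array, and KRT14 and KRT17 on isolated ones. KRT14, the type I partner of KRT5, has 2 probes, of which the brighter measured 7.35, 4.51 and 5.76 in T47D-VC1, 33.0, 3.50 and 3.62 in T47D-PA5, and 11.3, 17.5 and 16.3 in T47D-PA6. It was well above background on replicate 1 of T47D-PA5 and on replicates 2 and 3 of T47D-PA6 only, so it was not tested. KRT17 was well above background on replicate 1 of T47D-PA5, at 27.8, and on replicate 3 of T47D-PA6, at 14.7.

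KRT15 and KRT16 were the basal keratins that could be tested. KRT15, a type I keratin of basal and progenitor cells (chr17:39670142-39670201), measured 2126, 2372 and 3632 in T47D-VC1, 1742, 3523 and 3135 in T47D-PA5, and 2943, 3654 and 3529 in T47D-PA6. Replicate 1 was the lowest array in each line, and the lines overlap. The difference of T47D-PA6 from T47D-VC1 was 0.35 on the log2 scale with a 95% interval from -0.31 to 1.01. KRT16, a type I keratin induced in injured skin (chr17:39767216-39767364), measured 27.0, 17.1 and 20.5 in T47D-VC1, 40.0, 21.5 and 13.8 in T47D-PA5, and 38.5, 30.8 and 20.7 in T47D-PA6. Its difference was 0.46 with an interval from -0.42 to 1.34, and these widths leave room for a change of more than 2-fold in either gene.

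The 2 lists can be set side by side only as descriptions. Between T47D-PA6 and T47D-VC1, the median log2 difference was 0.08 over the 4 luminal keratins tested and 0.40 over the 2 basal ones, against -0.03 over all genes tested. Between T47D-PA5 and T47D-VC1 it was 0.12 and 0.06, against -0.03. Between T47D-PA6 and T47D-PA5 it was -0.07 and 0.34, against 0.00. With KRT19 free to move on the 75th percentile scale, the luminal median was 0.17 in T47D-PA6 and 0.19 in T47D-PA5. Signals were also summed over the 7 basal or myoepithelial markers. The sum was 468.5 to 910.9 in T47D-VC1, 999.9 to 1012.7 in T47D-PA5 and 1087.8 to 1551.5 in T47D-PA6. Only ACTA2 and OXTR among the 7 passed the background mark on every array, and TP63, KRT5 and MYH11 passed it nowhere. The brightest markers weigh most in such a sum, and the share of each was not counted. The part of this sum in the values of KRT15 and KRT16 was not tested.

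Against T47D-VC1, 2 of the 32 keratin genes (6.25%) were called in T47D-PA6 and both were lower. Among all genes 10.0% were called in that comparison, 5.34% as lower in T47D-PA6. Against T47D-PA5, 3 keratins (9.38%) were called in T47D-PA6 and all were lower, against 9.70% of all genes called and 6.06% called lower. In T47D-PA5 compared with T47D-VC1, limma called 0 keratins, with 2 at an unadjusted p under 0.05, against 1.66% of all genes called. The keratin counts are near the shares over all genes in each comparison, and those that include T47D-VC1 share its arrays.

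**Figure D2:**
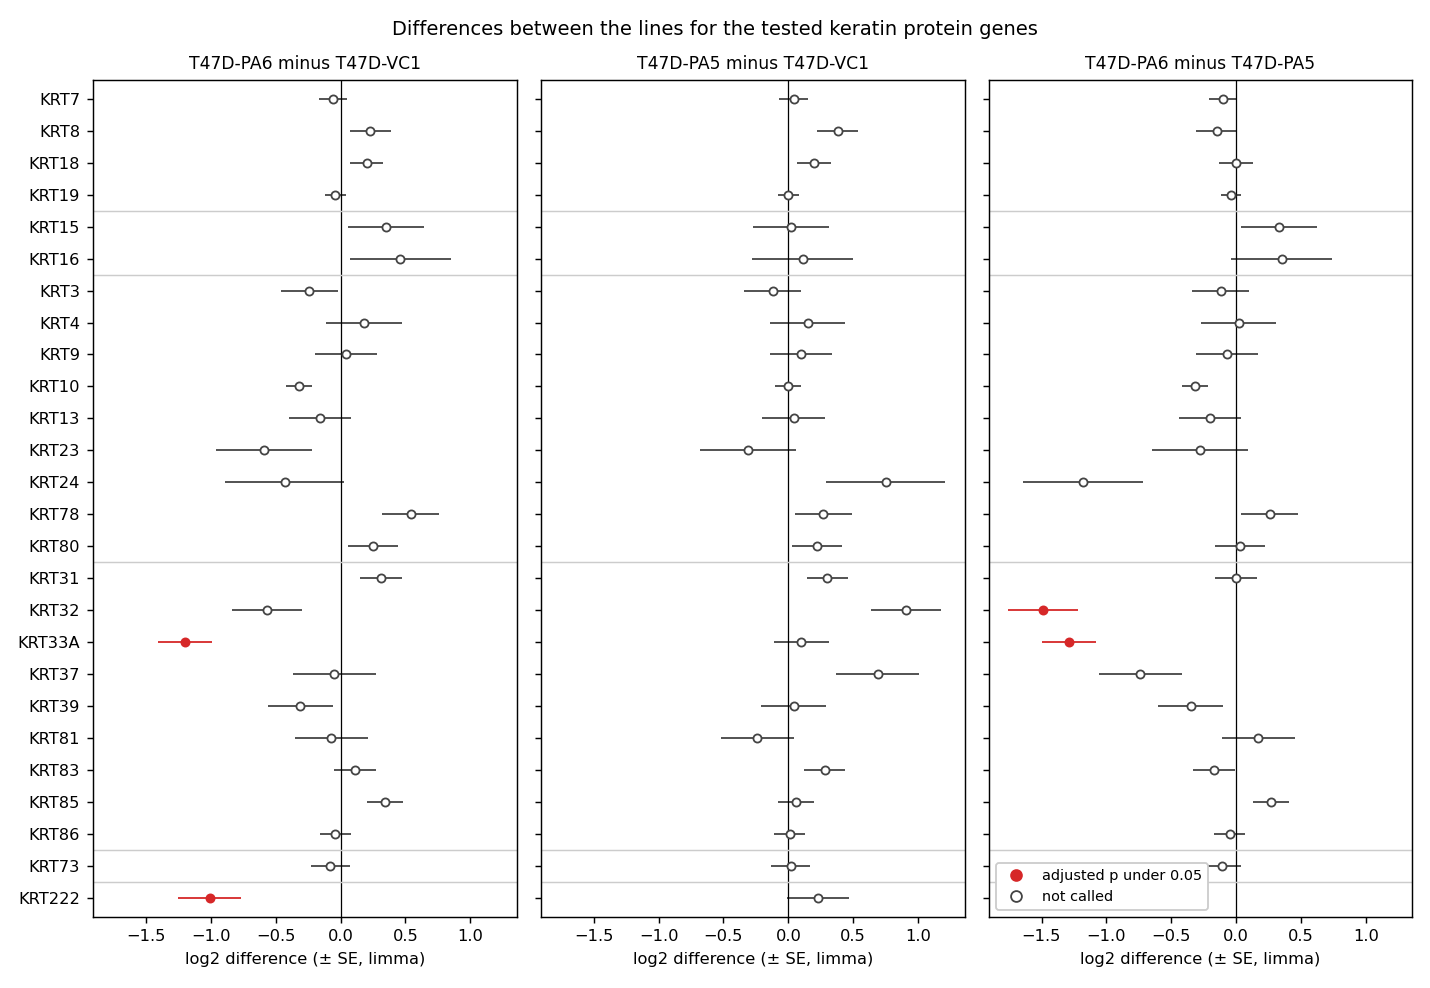
Log2 differences with their SE from limma for the 26 tested keratin protein genes, in the 3 comparisons of the lines. Red points passed an adjusted p of 0.05, namely KRT33A and KRT222 in T47D-PA6 compared with T47D-VC1 and, beside these, KRT32 in T47D-PA6 compared with T47D-PA5.

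KRT33A, KRT32 and KRT222 were the 3 genes called. KRT33A and KRT32 are type I keratins of hair, with no usual place in breast epithelium, and all 3 lie in the type I cluster of chromosome 17. Their signals were from 18.2 to 198.7, and each was well above background on all 9 arrays.

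KRT33A, a keratin of the hair cortex, was read by a single probe (chr17:39502371-39502430). The probe holds a stretch that differs at 1 base from one in the probe of KRT33B, a closely related gene nearby on chromosome 17. The 30 bases that align are shown because they bear on which gene the signal belongs to, with the differing base in capitals.
KRT33A: tgtgggccttgcaacacAtttgggtactag
KRT33B: tgtgggccttgcaacacCtttgggtactag

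The KRT33B probe read 2.96 to 9.79 and was well above background on no array. Binding of KRT33B RNA to the KRT33A probe was not tested.

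KRT33A measured 88.3, 120.4 and 115.3 in T47D-VC1, 104.1, 110.3 and 130.4 in T47D-PA5, and 64.2, 38.5 and 41.1 in T47D-PA6. All arrays of T47D-PA6 lay below all those of the other lines, whereas T47D-VC1 and T47D-PA5 overlap. On the log2 scale T47D-VC1 had an SD of 0.24, T47D-PA5 one of 0.17 and T47D-PA6 one of 0.40 (n = 3 each). KRT33A fell to 0.436-fold of T47D-VC1, a log2 difference of -1.20 ± 0.21 with an adjusted p of 0.012 in limma, and to 0.408-fold of T47D-PA5, a difference of -1.29 ± 0.21 with an adjusted p of 0.0090. Within the earlier scan run the difference from T47D-VC1 was -0.46 and within the later one -1.57. With the slide as a block it was -1.16 with an adjusted p of 0.038. The difference from T47D-VC1 did not pass without replicate 3 of T47D-VC1, with an adjusted p of 0.055, or without replicate 3 of T47D-PA6, with 0.056, while that from T47D-PA5 passed in limma whichever array was left out. By the unpaired test that the methods name, neither difference passed.

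KRT222 (chr17:38812755-38812814) measured 143.2, 163.6 and 182.0 in T47D-VC1, 178.4, 195.5 and 198.7 in T47D-PA5, and 121.9, 57.8 and 73.6 in T47D-PA6. T47D-PA6 was below both other lines on every array, and its replicate 1 lay nearest to them. The gene fell to 0.496-fold of T47D-VC1, a log2 difference of -1.01 ± 0.24 with an adjusted p of 0.036 in limma, and to 0.421-fold of T47D-PA5, a difference of -1.25 ± 0.24 with an adjusted p of 0.017. The difference from T47D-VC1 was -0.23 in the earlier scan run and -1.40 in the later one, and with the slide as a block it no longer passed, at -0.97 with an adjusted p of 0.076. Leaving out 1 array ended this call in 7 of 9 cases, all but those without replicate 1 of T47D-VC1 (adjusted p of 0.046) and without replicate 1 of T47D-PA6 (0.0025). The same call was lost in limma with the compared lines alone (0.089) and without the filter on dim probes (0.1), and by the methods' unpaired test (0.2). The call against T47D-PA5 was lost without replicate 2 or 3 of T47D-PA5 (0.064 and 0.067), without replicate 2 or 3 of T47D-PA6 (0.051 and 0.072) and without the filter on dim probes (0.057). By the methods' unpaired test it was lost too (0.13).

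KRT32, a keratin of the hair cuticle (chr17:39616104-39616163), measured 27.9, 36.7 and 29.4 in T47D-VC1, 91.3, 42.9 and 51.4 in T47D-PA5, and 24.7, 18.2 and 20.4 in T47D-PA6. The 3 lines do not overlap, with T47D-PA5 highest and T47D-PA6 lowest, and replicate 1 of T47D-PA5 lay well above the other arrays. KRT32 was lower in T47D-PA6 than in T47D-PA5, at 0.357-fold, a log2 difference of -1.49 ± 0.27 with an adjusted p of 0.013 in limma. Against T47D-VC1, the difference was 0.91 ± 0.27 in T47D-PA5 with an adjusted p of 0.15 and -0.57 ± 0.27 in T47D-PA6 with an adjusted p of 0.22. The difference between T47D-PA6 and T47D-PA5 was -1.88 in the earlier scan run and -1.29 in the later one. Without replicate 1 of T47D-PA5 it was -1.17 with an adjusted p of 0.015, and it did not pass without replicate 2 or 3 of T47D-PA6, with adjusted p-values of 0.057 and 0.054. By the methods' unpaired test it did not pass either, with an adjusted p of 0.11.

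**Figure D3:**
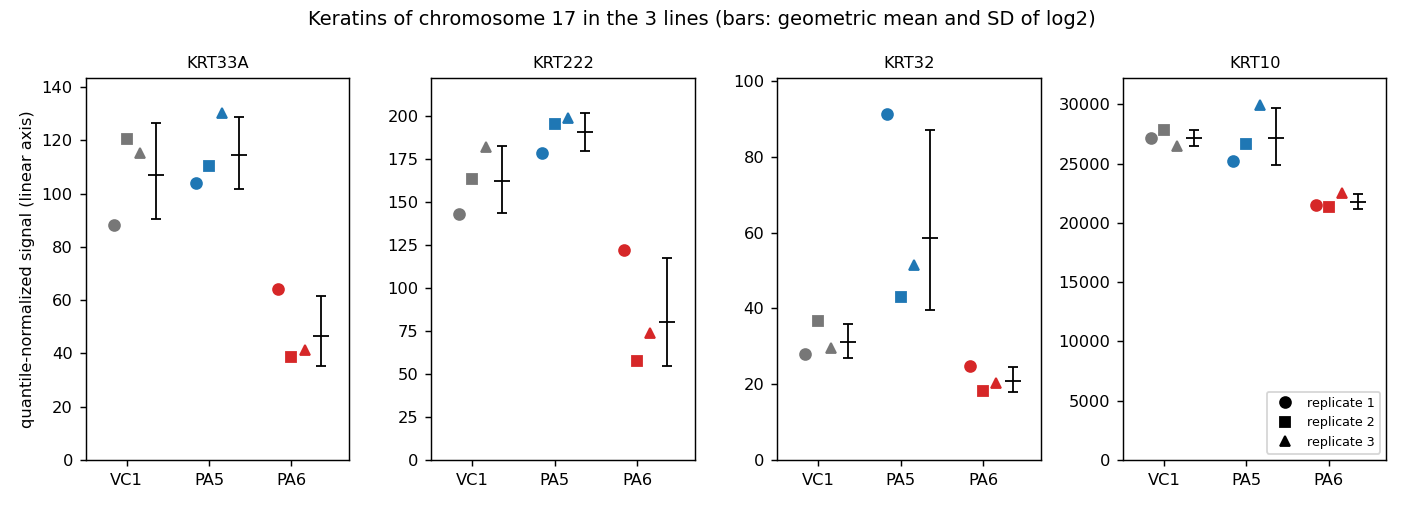
Signals of KRT33A, KRT222, KRT32 and KRT10 on each array, on linear axes from 0, with the geometric mean and the SD of the log2 values as bars. All 3 arrays of T47D-PA6 lie below those of T47D-VC1 and T47D-PA5 for each gene, and the limma test was passed by the first 2 against both lines and by KRT32 against T47D-PA5.

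Because KRT33A and KRT32 moved in the same direction between T47D-PA6 and T47D-PA5, the 250 bases before their starts are shown, from RefSeq on GRCh38.p14 (KRT33A, chr17:41350829-41351078 and KRT32, chr17:41467387-41467636, both on the minus strand). The capitals mark a TATAAA match, the letters of a TATA box.
KRT33A: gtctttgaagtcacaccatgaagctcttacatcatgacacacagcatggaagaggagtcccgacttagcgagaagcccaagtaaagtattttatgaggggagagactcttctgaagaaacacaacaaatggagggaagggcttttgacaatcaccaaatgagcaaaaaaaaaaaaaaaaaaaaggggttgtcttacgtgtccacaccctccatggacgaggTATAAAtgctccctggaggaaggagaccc
KRT32: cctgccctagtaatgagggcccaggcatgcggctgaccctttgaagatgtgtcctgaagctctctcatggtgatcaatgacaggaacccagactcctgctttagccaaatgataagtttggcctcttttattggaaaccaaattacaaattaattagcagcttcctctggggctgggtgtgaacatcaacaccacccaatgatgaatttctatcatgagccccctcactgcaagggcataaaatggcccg

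A few sets of letters were searched on both strands in such stretches of 34 of the 55 keratin protein genes, those in the RefSeq table, 13 of them tested, and of all promoters in the table. TATAAA was found in 20 of the 34 keratin promoters (58.8%) and in 3763 of all 35116, and in KRT33A it begins 29 bases before the start. TTCNNNGAA, the letters of a GAS element, was found in 2 (5.88% against 6.57%), and the core of an interferon-stimulated response element in 3 (8.82% against 3.02%), of which KRT10 and KRT24 were tested genes. TGANTCA, the letters of an AP-1 site, was found in 0 against 6.57% of all promoters. In the stretches of KRT33A and KRT32 none of the last 3 was found, which concerns these letters and this window only. KRT222 and KRT19 are not in the table.

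KRT10, the type I keratin of suprabasal epidermis (chr17:38974436-38974495), did not pass the test, and its replicates lay close together, with log2 SDs of 0.04, 0.13 and 0.04. It measured 27172, 27855 and 26514 in T47D-VC1, 25182, 26616 and 29919.7 in T47D-PA5, and 21508, 21323 and 22528 in T47D-PA6. T47D-PA6 was below both other lines on every array, and T47D-VC1 and T47D-PA5 overlap. The log2 difference was -0.32 ± 0.10 against each of them, with adjusted p-values of 0.071 against T47D-VC1 and 0.076 against T47D-PA5 in limma and a 95% interval from -0.54 to -0.10 in both. Within the 2 scan runs the difference from T47D-VC1 was -0.34 and -0.31.

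Counted by overlap, 4 tested keratin genes were lower and 4 were higher on all T47D-PA6 arrays than on all T47D-VC1 arrays, 25.0% of the 32, where 30.9% of all genes did not overlap. The lower ones were KRT10, KRT32, KRT33A and KRT222. The higher ones were KRT31 and KRT85 of hair and nail and the pseudogenes KRT16P2 and KRT19P2. KRT85 measured 52.3, 51.7 and 50.4 in T47D-VC1, 59.9, 50.5 and 51.1 in T47D-PA5, and 71.9, 72.6 and 52.4 in T47D-PA6, and its log2 difference of 0.34 ± 0.14 had an adjusted p of 0.18 in limma. KRT16P2 entered the test through T47D-PA6 alone, the line where it is high, so that its place in this count was favored by the filter. It was well above background on no T47D-VC1 array, and the ratio of T47D-PA6 to T47D-VC1 is at least 1.56-fold, with a mean of 19.4 against 11.4 and an adjusted p of 0.56. Compared with T47D-PA5, 6 keratins were lower on all T47D-PA6 arrays and 0 were higher, 18.8% of the 32 against 32.7% of all genes. The 6 were the same 4 lower genes and KRT24 and KRT37. Compared with T47D-VC1, T47D-PA5 was separate for KRT32 only, 3.12% against 23.3% of all genes.

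The position of the keratins can be set beside their change. The 14 tested protein genes on chromosome 17 had a median log2 difference of -0.23 in T47D-PA6 compared with T47D-VC1, with 2 called lower and 0 higher, and the 12 on chromosome 12 had 0.14, with 0 called. Over all 1252 genes tested on chromosome 17 the median was -0.14, with 108 called lower and 43 higher, and over the 970 on chromosome 12 it was -0.01, with 24 lower and 40 higher. Compared with T47D-PA5, the keratins on chromosome 17 had a median of -0.30 and all genes there -0.14. Among the 19 other tested genes between KRT222 and KRT16, chr17:38812755-39767364, the median was -0.11 compared with T47D-VC1, with 2 called lower and 0 higher. In T47D-PA5 compared with T47D-VC1 all genes of chromosome 17 had a median of 0.01 and its keratins 0.10. The part of a shift of the whole chromosome in the keratin values was not tested.

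KRT23, a type I keratin (chr17:39078962-39079021), spread widely within T47D-VC1, with a log2 SD of 0.87. It measured 1825, 5334 and 5041 in T47D-VC1, 2346, 3306 and 3294 in T47D-PA5, and 2429.9, 2473 and 2398 in T47D-PA6. Replicate 1 of T47D-VC1 was the lowest of all 9 arrays, while the other 2 of that line were the highest. A second probe (chr17:39081720-39081779) placed the arrays of T47D-VC1 in the same way, with 179.1, 563.9 and 566.2 in T47D-VC1, 240.6, 367.5 and 276.2 in T47D-PA5, and 198.4, 238.6 and 256.9 in T47D-PA6. Over all arrays the log2 difference of T47D-PA6 from T47D-VC1 was -0.59 ± 0.37 with an adjusted p of 0.36 in limma. It was 0.41 in the earlier scan run and -1.09 in the later one, where it passed with an adjusted p of 0.00055, and without replicate 1 of T47D-VC1 it was -1.10 with an adjusted p of 0.0078.

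KRT24 and KRT37, also of chromosome 17, likewise had their lowest T47D-VC1 signal in replicate 1. KRT24 measured 16.6, 59.3 and 44.4 in T47D-VC1, 60, 58.5 and 58.8 in T47D-PA5, and 15.8, 33.8 and 33.4 in T47D-PA6. KRT37 measured 22.3, 60.4 and 41.6 in T47D-VC1, 55.0, 63.7 and 67.2 in T47D-PA5, and 34.5, 32.9 and 44.9 in T47D-PA6. T47D-PA6 lay below T47D-PA5 on every array for both genes, with log2 differences of -1.18 and -0.74 and adjusted p-values of 0.16 and 0.20. Among the 25 tested protein genes other than KRT19, the sign of the difference between T47D-PA6 and T47D-VC1 was the same in both scan runs for 14 and opposite for 11.

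**Figure D4:**
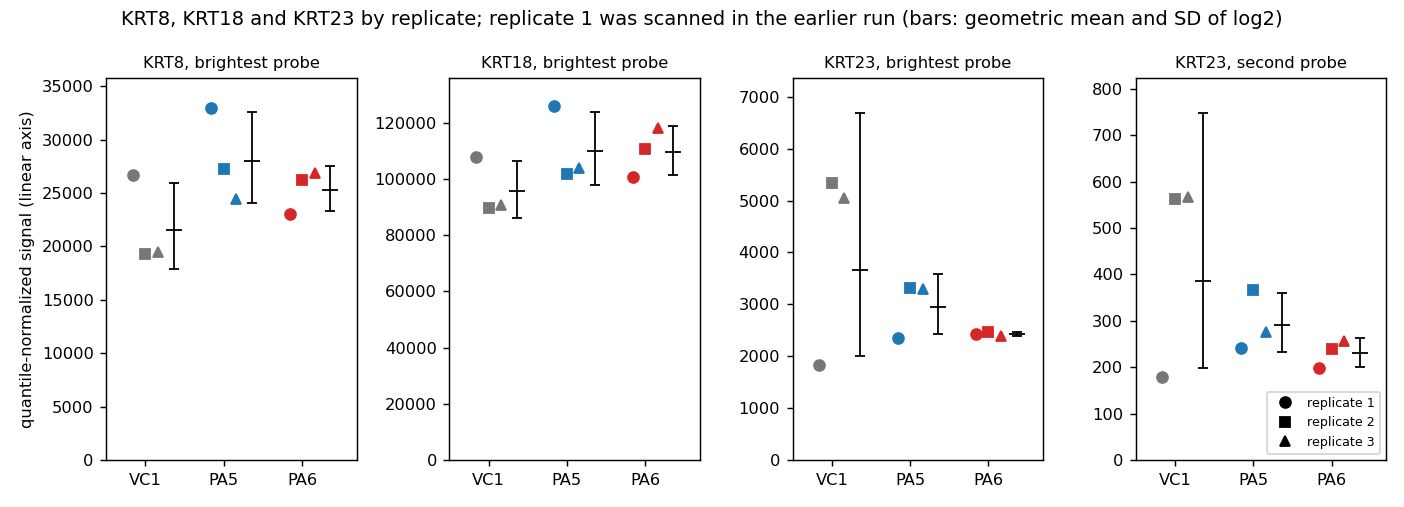
Signals of KRT8, KRT18 and the 2 probes of KRT23 on each array, on linear axes from 0, with the geometric mean and the SD of the log2 values as bars. Replicate 1 (circles), from the earlier scan run, stands apart from replicates 2 and 3 in T47D-VC1, above them for KRT8 and KRT18 and below them for KRT23.

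The remaining keratins of hair and nail were not called in any comparison. With KRT33A and KRT32, 11.1%, 0.0% and 22.2% of the 9 tested genes of this list were called in the 3 comparisons. Over all genes it was 10.0%, 1.66% and 9.70%. KRT81, KRT83 and KRT86, type II hair keratins whose genes are near-identical copies beside each other on chromosome 12, passed background on each array, and binding of one copy's RNA to the probe of another was not tested. KRT81 ranged from 9509 to 20391, with log2 differences of -0.07 in T47D-PA6 and -0.24 in T47D-PA5 from T47D-VC1. KRT86 ranged from 1278 to 1654, with -0.04 and 0.01. The probes of KRT83 went different ways, with 0.11 in T47D-PA6 at the brighter one (chr12:52709702-52709761) and -0.55 at the other (chr12:52710677-52710736). KRT31 and KRT39 were dim, at most 30.6 and 32.7.

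The keratins of suprabasal and other epithelia included no called gene among 9 tested. Over all genes 10.0%, 1.66% and 9.70% were called in the 3 comparisons, so that a list of 9 genes with 0 calls is not set apart from them. KRT78, a type II keratin, measured 45.8, 30.4 and 39.1 in T47D-VC1, 53.9, 50.2 and 35.6 in T47D-PA5, and 66.6, 45.2 and 55.4 in T47D-PA6. The lines overlap, and the log2 difference of 0.54 ± 0.22 between T47D-PA6 and T47D-VC1 had an adjusted p of 0.16 in limma. KRT80, a keratin linked to desmosomes, ranged from 1729.9 to 2871, KRT3 from 60.4 to 113.7, KRT9 from 31.6 to 58.9, KRT13 from 24.6 to 47.3 and KRT4 from 16.4 to 35.6, with log2 differences of T47D-PA6 from T47D-VC1 between -0.24 for KRT3 and 0.25 for KRT80. KRT73 was the only gene of the inner root sheath that was tested, from 962 to 1318, with a difference of -0.08. Of the genes that were not tested, KRT76 was well above background on replicate 1 of T47D-PA6 alone, at 89.3, where the other 8 arrays read 3.05 to 10.2.

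Genes that work with keratins were read from 5 further lists. In the desmosome list, the junctions to which keratin filaments attach, 10 of 16 genes were tested and 0 were called by limma in any comparison, with 2 at an unadjusted p under 0.05 in each comparison with T47D-VC1 and 4 between T47D-PA6 and T47D-PA5. Over all genes 10.0%, 1.66% and 9.70% were called in the 3 comparisons, so that a list of 10 genes with 0 calls is not set apart from them. EVPL (envoplakin) had the lowest adjusted p there, 0.052, with a log2 difference of -0.36 ± 0.10 between T47D-PA6 and T47D-PA5. Of 6 tested genes of hemidesmosomes and linkers, DST (dystonin, which ties keratins to the hemidesmosome) fell in T47D-PA6, with 139.5, 166.7 and 165.3 against 234.8, 253.5 and 290.9 in T47D-VC1 and 233.8, 264.5 and 248.3 in T47D-PA5. Its log2 difference was -0.72 ± 0.12 from T47D-VC1 with an adjusted p of 0.0096 and -0.67 ± 0.12 from T47D-PA5 with an adjusted p of 0.013. ITGB4, the β4 integrin of the hemidesmosome, was lower in T47D-PA6 than in T47D-PA5 by -0.70 ± 0.14, with an adjusted p of 0.020. Limma did not call ITGB4 against T47D-VC1, at 0.46 in T47D-PA5 (adjusted p of 0.17) and -0.25 in T47D-PA6 (0.32).

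Of 10 tested intermediate filament genes outside the keratins, VIM and SYNC were called in T47D-PA6 compared with T47D-VC1. VIM, which encodes vimentin, the filament of mesenchymal cells, was at 5.84, 6.47 and 6.83 in T47D-VC1, below background on all 3, at 22.9, 25.8 and 26.2 in T47D-PA5 and at 34.8, 91.3 and 96.9 in T47D-PA6. It rose at least 5.42-fold in T47D-PA6 with an adjusted p of 0.0012 and at least 2.0-fold in T47D-PA5 with an adjusted p of 0.031. VIM entered the test only through these 2 lines, where it is high, and the filter favored this direction. Its call in T47D-PA5 was lost without any 1 of the 3 T47D-VC1 or 3 T47D-PA5 arrays and without the filter. T47D-PA6 was also above T47D-PA5, by 1.44 ± 0.34 on the log2 scale with an adjusted p of 0.036. None of KRT7, KRT8 and KRT18 was called beside it. SYNC, which encodes syncoilin, fell in T47D-PA6. Its log2 difference was -0.72 from T47D-VC1 (adjusted p of 0.018 in limma) and -0.62 from T47D-PA5 (0.03). LMNA, the gene of the nuclear lamins A and C, was lower in T47D-PA6 than in T47D-PA5 by -0.81 ± 0.11 (adjusted p of 0.0051). Limma did not call LMNA against T47D-VC1, at 0.53 in T47D-PA5 (adjusted p of 0.052) and -0.27 in T47D-PA6 (0.15).

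In the list of cornified envelope and keratin bundling, TCHH, which encodes trichohyalin of the hair root sheath, was called between T47D-PA6 and T47D-PA5. It was well above background on all arrays of T47D-PA5 and on none of T47D-PA6, at least 2.78-fold lower in T47D-PA6 with an adjusted p of 0.010. TCHH entered the test through T47D-PA5 alone, the line where it is high, so that the filter favored a difference of this direction. KRTCAP2 was lower in T47D-PA6 than in T47D-PA5 by -0.41 ± 0.11 (adjusted p of 0.048). Limma did not call KRTCAP2 against T47D-VC1, at 0.36 in T47D-PA5 (adjusted p of 0.16) and -0.06 in T47D-PA6 (0.79). Of 12 tested epithelial transcription factors, limma called 0 in any comparison, with 1 at an unadjusted p under 0.05 in each comparison with T47D-VC1, against the same 10.0%, 1.66% and 9.70% of all genes called. Over all 45 partner genes tested, 3 were called in T47D-PA6 and 1 in T47D-PA5 compared with T47D-VC1, and 7 in T47D-PA6 compared with T47D-PA5. These are 6.67%, 2.22% and 15.6% of the partner genes, where 10.0%, 1.66% and 9.70% of all genes were called.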

How the data were processed

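RNA of 9 single-color arrays (SurePrint G3 Human Gene Expression v3), 3 for each line, was read from the intensity of each spot that the authors deposited as Feature Extraction gave it, subtracted for background and not yet normalized between arrays. The scanner files name version 10.7.1.1, the submitters' processing notes 9.5.1.1. The authors also deposited a quantile-normalized intensity table, used as an alternative. Control spots and 46 to 117 outlier spots per array were left out, spots of a probe were averaged as log2 values, and arrays were quantile-normalized, as in the study's methods. Probes with no value on an array (65, no keratin among them) were left out. A gene was read from its brightest tested probe. Symbols were updated with RefSeq (31127 probes by symbol, 3418 by accession, 474 by synonym, and 23182 kept their name). Keratins were taken by the file's own name.

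All 9 arrays entered a single limma fit (lmFit and eBayes, limma 3.58.1 under R 4.3.3) with 6 residual degrees of freedom, Benjamini-Hochberg adjustment and a threshold of 0.05. On simulated data, 190 of 200 changed genes among 20077 were called for T47D-PA6 compared with T47D-VC1, with 15 others. Each planted change was larger than any keratin difference of the main fit, and the simulated arrays had no effect of scan run or slide. The share called at differences as small as those of the keratins was not tested. The number of arrays limits the precision. With 3 arrays a line, an exact two-sided permutation p is at least 0.1. A fold against a line below background on all arrays is a bound, set, per array, at the dimmest signal that counted as well above background or at the probe's own signal where that was higher.

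Named were all keratin protein genes called, all tested luminal and basal keratins, those well above background on all arrays, and up to 4 called genes per partner list. KRT4, KRT14, KRT17, KRT24, KRT76 and EVPL, probes beside the brightest and pseudogenes were named after their values were seen. Keratins and lists were chosen with earlier results of these data known. The alternatives were another normalization (75th percentile shift), normexp with an offset of 50, the authors' table, other filters and probe choices, blocks, an intensity trend, compared lines alone, the methods' unpaired test, and arrays left out.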

Additional observations from a re-analysis of the deposited data

Results flagged for a closer look

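The lines with a fragment, T47D-PA6 and T47D-PA5, were compared with each other, and 3 keratins passed the limma test. This is a difference between 2 selected lines. The log2 difference was -1.49 for KRT32, -1.29 for KRT33A and -1.25 for KRT222. For KRT33A and KRT222 T47D-PA6 also differed from T47D-VC1, and for KRT32 it did not pass there.

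Outside the test, 4 keratin protein genes were well above background on some array, 1 of them on a T47D-VC1 array. The other 3 had such signals only in lines with a fragment, each on 1 to 3 arrays. The share of all untested genes with such signals was not counted. The highest was 33.0 for KRT14 and 27.8 for KRT17, both on replicate 1 of T47D-PA5, and 89.3 for KRT76 on replicate 1 of T47D-PA6. KRT5, the type II partner of KRT14, was well above background on no array.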

How the results depend on the processing

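Both limma calls of KRT33A and those of KRT222 and KRT32 kept their direction under all 22 alternatives. In T47D-PA6 compared with T47D-VC1, the 2 keratins called became 1 without a filter on dim probes, 1 with the slide as a block, 1 by the unpaired test that the methods name (KRT10, at an adjusted p of 0.042) and 12 with replicates 2 and 3 alone. In T47D-PA5 the 0 keratins became 2 with replicates 2 and 3 alone (KRT8 and KRT23). In T47D-PA6 compared with T47D-PA5 the 3 became 0 by the methods' test and 8 with replicates 2 and 3 alone. The calls over all genes moved too. With replicates 2 and 3 alone, 37.2%, 21.4% and 35.5% of all genes were called in the 3 comparisons. Over all 20077 genes, the methods' test called 429, 38 and 773, where the main fit called 2014, 334 and 1948. Leaving out 1 array gave 0 to 3, 0 to 0 and 1 to 5 keratins in the 3 comparisons. In the first, it was 0 without replicate 3 of T47D-VC1 or of T47D-PA6, 1 without replicate 2 of T47D-VC1 or T47D-PA6 or any array of T47D-PA5, and 3 without replicate 1 of T47D-VC1. In the last, it was 1 without replicate 2 or 3 of T47D-PA6 and 5 without replicate 1 of T47D-VC1.

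Partner genes called in T47D-PA6 compared with T47D-VC1 went from 3 to 0 by the methods' test and 20 with replicates 2 and 3 alone. In T47D-PA5 they went from 1 to 0 without a filter and with the stricter one, to 2 with the slide as a block and with an intensity trend, and to 12 with replicates 2 and 3 alone. In T47D-PA6 compared with T47D-PA5 they went from 7 to 4 with the compared lines alone, 3 by the methods' test and 21 with replicates 2 and 3 alone. With those replicates alone, the same 37.2%, 21.4% and 35.5% of all genes were called in the 3 comparisons. Leaving out 1 array gave 2 to 5, 0 to 2 and 2 to 9. The cause of these moves was not tested.

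In the main fit the replicate numbers were not taken as pairs. The deviations of all 9 same-numbered pairs correlated positively, at 0.099 to 0.337, lowest for replicate 2 in T47D-VC1 and T47D-PA5. Replicate 1 of each line, from the earlier scan run, correlated negatively with replicates 2 and 3 of the others. The main fit has no term for the scan run, while the blocks by replicate and by slide each separate the 2 runs. A replicate block called 2, 0 and 3 keratins and 3, 1 and 6 partner genes, and it moved the calls over all genes in T47D-PA6 compared with T47D-VC1 from 2014 to 2612. Replicate 3 of T47D-VC1 correlated with replicate 2 of T47D-PA6 at 0.261 and with replicate 3 at 0.242, so that not every array correlated best with its own number.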
